A study of Mus musculus with 6 samples.

Results

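The clustered histone genes supply most of the histone protein that packs newly copied DNA, and they were followed here in regenerating mouse muscle. All symbols that begin with Hist1h, Hist2h, Hist3h or Hist4h were taken, 65 of the 26431 genes in the table, and each was represented by its transcript of highest mean level over the 6 libraries. They comprised 6 H1, 17 H2A, 18 H2B, 12 H3 and 12 H4 genes. Of these, 52 belong to the Hist1 cluster, 9 to Hist2, 3 to Hist3 and 1 to Hist4, and the matched members lie on chromosomes 13, 3, 11 and 6 of the mouse genome build GRCm38.

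The samples were tibialis anterior (TA) muscles of female C57BL/6 mice aged 8 to 10 weeks. The day 3 group comprised 3 mice whose TA muscle had received 50 μl of cardiotoxin (CTX) at 10 μM, a snake venom toxin that destroys muscle fibres, 3 days earlier, and the uninjured group comprised 3 mice, with 1 library per mouse. No mouse carried a named mutation, and a saline-injected muscle was not analysed here. Values are RPKM, read counts divided by the length of the transcript and by the mapped reads of the library, and p-values measure the spread between these mice.

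Replication-dependent histone genes are known to be switched on together in S phase, when DNA is copied. Their mRNAs end in a short stem-loop in place of a poly(A) tail, and the stem-loop binding protein Slbp holds the loop through processing, export and translation. Replacement histones such as H2afz and H3f3b come from separate genes with ordinary polyadenylated mRNAs and are made outside S phase too, and some clustered genes also give polyadenylated transcripts in cells that no longer divide. Whether these libraries were made from poly(A)-selected RNA is not given in the sources used here, so the amount of stem-loop mRNA that they could capture is unknown.

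The stem-loop was searched in GENCODE M21 transcripts, after the stop codon, as the letters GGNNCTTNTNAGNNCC on the transcript strand. It was found in 42 of the 63 members that matched a transcript, against 78 of 21877 coding genes (0.357%). Of the 21 members without it, 15 have transcript models that end fewer than 20 bases after the stop codon, so the window searched was missing. The other 6 have 20 or more bases there and still lack it, among them Hist1h2bc with 742 bases and Hist2h2be with 2192 bases. The windows below belong to the member that rose most, the 5 members called lower and the H4 member called higher, and they are shown because the same end is carried by genes that moved in opposite directions; capitals mark the stem-loop.
Hist1h2ao (H2A, chr13:21810893-21810918, plus strand): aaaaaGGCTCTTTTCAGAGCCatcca
Hist1h1c (H1, chr13:23739507-23739532, plus strand): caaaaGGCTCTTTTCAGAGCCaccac
Hist1h1e (H1, chr13:23621777-23621802, minus strand): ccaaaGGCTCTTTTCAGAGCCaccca
Hist2h2aa2 (H2A, chr3:96239779-96239804, minus strand): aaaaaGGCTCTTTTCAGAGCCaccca
Hist1h4h (H4, chr13:23531453-23531478, plus strand): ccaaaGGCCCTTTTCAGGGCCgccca
Hist1h4j (H4, chr13:21735432-21735457, plus strand): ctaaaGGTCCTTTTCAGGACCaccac
Hist4h4 (H4, chr6:136803993-136804018, minus strand): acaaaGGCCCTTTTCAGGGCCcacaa
The 16 letters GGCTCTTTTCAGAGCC were the most frequent core, in 23 members, and they stand both in Hist1h2ao, the member with the largest rise, and in Hist1h1e, which fell. Hist1h4h, which fell, and Hist4h4, which rose, share the core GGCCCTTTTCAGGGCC. The models run on past the loop for 31 bases in Hist1h2ao and 46 bases in Hist1h4h, but for 840 bases in Hist1h1c, 1153 bases in Hist1h1e and 2445 bases in Hist4h4.

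Within a class the genes are close copies, which limits what a value for a single gene means. All 12 H4 genes encode 1 protein of 103 residues, the 12 H3 genes encode 2 proteins of 136 residues, and 8 of the 16 matched H2A genes encode the same protein, whereas the 6 H1 proteins are all different and are 53.0% to 87.3% identical. Reads were 50 nt long, so the share of all 50-base windows of a coding sequence that also occur in another histone gene, with up to 2 mismatches, was computed. This share was 95.6% to 100% in the H2A genes called higher below and 34.4% (Hist1h1e), 39.8% (Hist1h1c), 87.5% (Hist1h4h), 93.6% (Hist2h2aa2) and 100% (Hist1h4j) in the members called lower. The sources used here do not say to which copy such a read was given, so values of near-identical genes are uncertain one by one, and sums over a class are given beside them. In GENCODE, 22 of the 63 matched members also overlap exons of another gene, for most H2A genes a short gene on the opposite strand, and whether reads kept their strand is not given either.

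By totals inferred from the RPKM values, the libraries held 34202861 to 36129090 mapped reads at day 3 and 38737746 to 43062684 in uninjured muscle. The 65 genes took 5963 to 7130 of these reads at day 3 and 7278 to 7868 in uninjured muscle. That is 0.0174% to 0.0197% of the mapped reads at day 3 and 0.0183% to 0.0195% in uninjured muscle, ranges that overlap. Muscle fibre markers (6 of 6 called lower) summed to 1065 to 5487 RPKM at day 3 and 31017 to 33628 RPKM in uninjured muscle, with day 3 replicate 3 the lowest. Macrophage markers (6 of 6 higher) summed to 3760 to 5317 and 22.5 to 35.5 RPKM, satellite cell and myoblast markers (5 of 5 higher) to 545 to 790 and 13.2 to 18.3 RPKM, and dividing-cell markers (5 of 5 higher) to 244 to 297 and 11.8 to 13.4 RPKM, at day 3 and in uninjured muscle in that order. Fibroblast markers (3 of 4 higher) summed to 1494 to 1653 and 151 to 228 RPKM in the same order, and neutrophil markers (3 of 3 tested higher) to 11.3 to 35.8 and 1.08 to 3.67 RPKM, with Ly6g at the lowest listed value, 0.01 RPKM, in all 6 libraries. The part of this change of cell types in the values below was not tested, and in whole muscle fewer cells of a type and less RNA per cell cannot be told apart.

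limma was fitted to log2(RPKM + 0.1) of all 14446 genes whose mean over the libraries reached 0.5 RPKM, and a gene was called where the Benjamini-Hochberg adjusted p was under 0.05 and the log2 fold change was 1 or more in either direction. The filter kept 50 of the 65 members. Of all genes tested, 60.5% were called higher and 7.96% lower at day 3, and their median log2 fold change was 1.35. That median is set by the scaling: it was 0.95 with the ERCC spike-in controls as reference, 0.22 after median-of-ratios scaling, -0.07 after quantile normalization and -0.70 with ribosomal protein genes as reference, so changes are read below against the median of all genes as well as against 0.

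Of the 50 tested members, 12 were called higher, 5 were called lower (10.0%), and 33 were not called. The 12 of 50 lay well below the 60.5% of all genes called higher, and the share called lower was close to the 7.96% of all genes. The members' median log2 fold change was -0.26, against 1.35 over all genes, and 38 of the 50 lay below the median of all genes. The calls were split by class: H2A held 11 of the 12 called higher, and H1 and H4 held 4 of the 5 called lower. The filter passed 1 member, Hist4h4, whose uninjured mean alone was below 0.5 RPKM, and 3 members (Hist1h1d, Hist1h2be and Hist1h3i) whose day 3 mean alone was below it. Without the filter, 16 of the 65 members were called higher and 5 lower, where the shares over all 26431 genes were 38.3% and 4.64%.

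**Figure D1:**
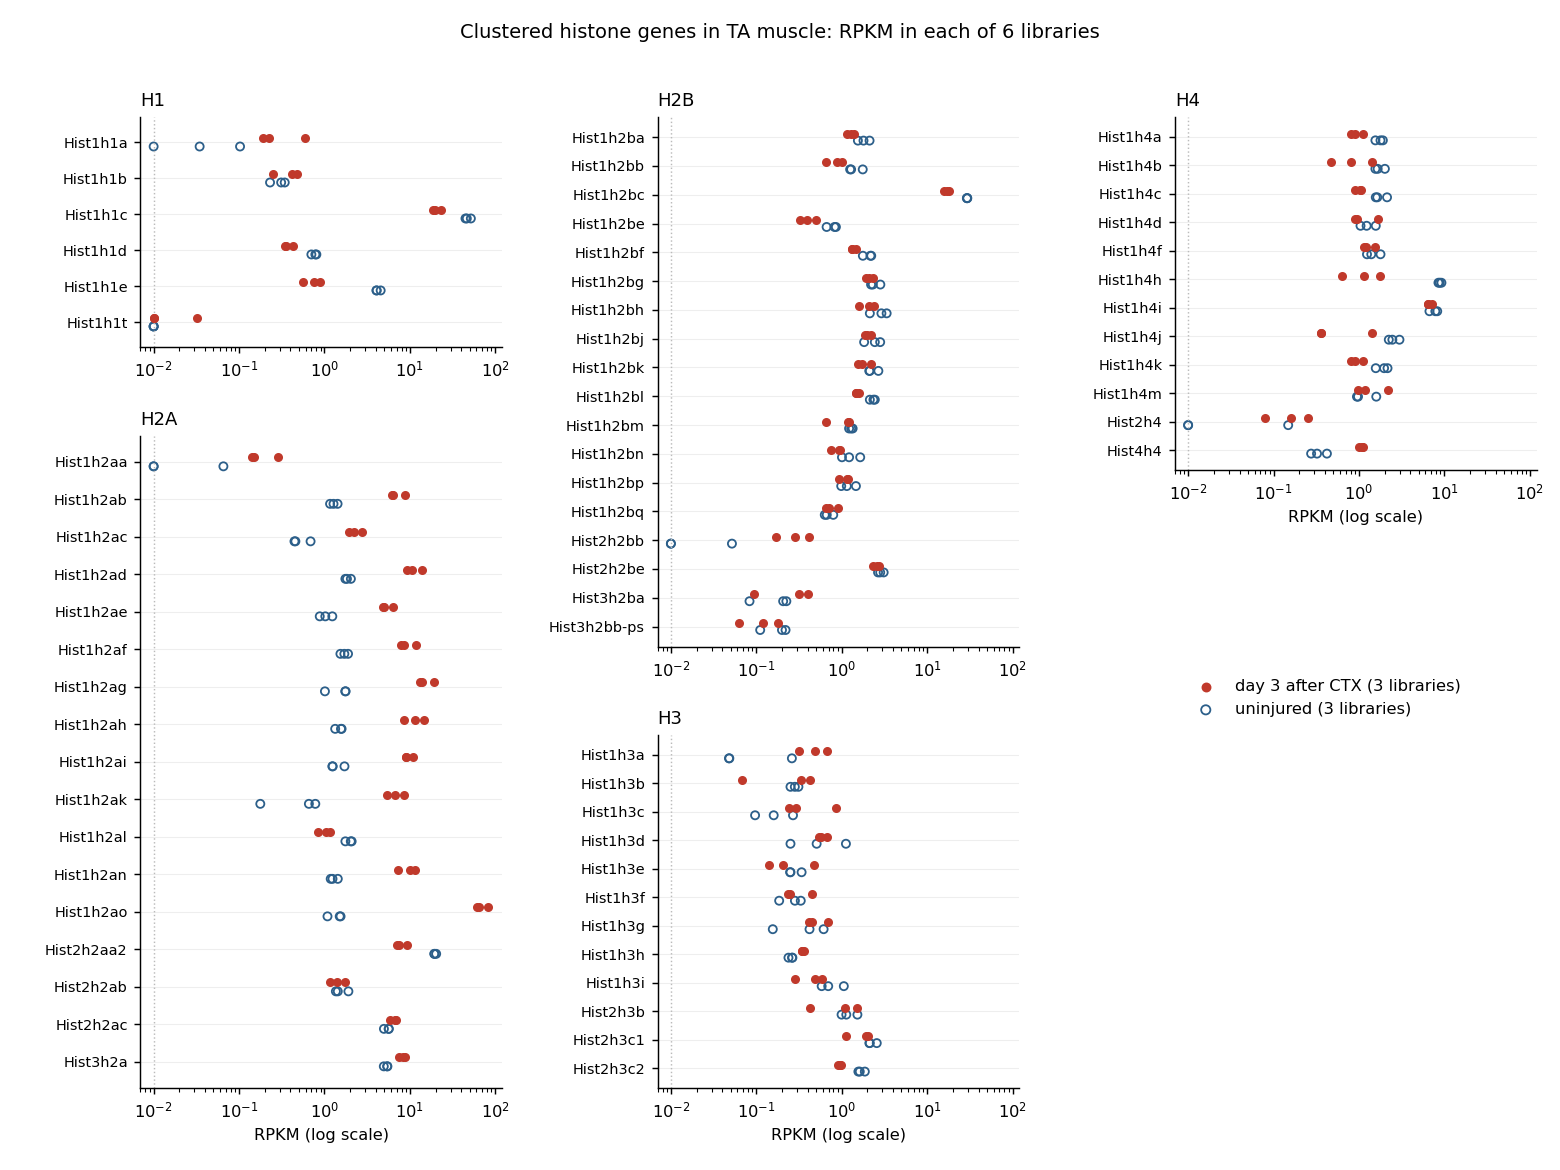
Level of each of the 65 clustered histone genes in RPKM on a log axis, with 3 day 3 libraries (filled) and 3 uninjured libraries (open) per gene; the dotted line is 0.01 RPKM, the lowest value listed. Hist1h2ao stood at 60.9 to 81.6 RPKM at day 3 and at 1.08 to 1.54 RPKM in uninjured muscle, while Hist1h1c, Hist2h2aa2 and Hist1h4h were lower in every day 3 library.

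H2A proteins form the core of the nucleosome in pairs with H2B. Of the 16 tested H2A genes, 11 (68.8%) were called higher, all of them Hist1 genes, a share close to the 60.5% of all genes. The coding windows of these 11 are shared to 95.6% to 100%, so their values may not be independent of each other. Their log2 fold changes ran from 1.95 to 5.55, each above the median of all genes, and the median over the 16 tested H2A genes was 2.37. Each of the 11 kept a positive log2 fold change under every scaling tried, although 8 of them were no longer called with ribosomal protein genes as reference, 4 after quantile normalization and 1, Hist1h2ac, after median-of-ratios scaling.

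Hist1h2ao was the most abundant clustered histone gene at day 3. It had 60.9, 64.6 and 81.6 RPKM at day 3, against 1.08, 1.54 and 1.51 RPKM in uninjured muscle, from 1070, 1180 and 1515 reads against 24, 31 and 30. All day 3 libraries lay far above all uninjured ones, and day 3 replicate 3 was the highest. Its mean was 50.1-fold higher, and the log2 fold change was 5.55 ± 0.16 (SE, limma adjusted p = 1.29e-07). It alone gave 24.7% to 27.6% of the summed clustered histone RPKM at day 3 and 0.568% to 0.789% in uninjured muscle. With up to 2 mismatches, all of its coding 50-base windows occur in other histone genes, as do 81.2% of the windows of its whole transcript. The 393-base entry of Hist1h2an, every window of which occurs in Hist1h2ao with up to 2 mismatches, held 7.22, 10.0 and 11.6 RPKM at day 3. Exact matches were not counted.

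The next largest rises were those of Hist1h2ak and Hist1h2ag. Hist1h2ak had 6.62, 5.37 and 8.59 RPKM at day 3, against 0.177, 0.781 and 0.657 RPKM in uninjured muscle. Its uninjured values rest on 3, 12 and 10 reads, so its log2 fold change of 3.59 ± 0.43 (SE, limma adjusted p = 0.000114) has the widest interval of the H2A genes, 2.56 to 4.61. Hist1h2ag had 13.7, 13.0 and 19.2 RPKM at day 3, against 1.01, 1.75 and 1.77 RPKM in uninjured muscle, a log2 fold change of 3.27 ± 0.24 (SE, limma adjusted p = 6.26e-06). In both genes the groups did not overlap.

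The remaining risers, Hist1h2ab, Hist1h2ac, Hist1h2ad, Hist1h2ae, Hist1h2af, Hist1h2ah, Hist1h2ai and Hist1h2an, had log2 fold changes between 1.95 and 2.84 and did not overlap between groups, as was also true of 78.5% of all genes tested in the direction of day 3. Hist1h2ac changed least among them, with 1.96, 2.24 and 2.74 RPKM at day 3 and 0.456, 0.687 and 0.445 RPKM in uninjured muscle. Its log2 fold change was 1.95 ± 0.19 (SE, limma adjusted p = 3.44e-05), but 0.0018 with ribosomal protein genes as reference. In all 11 risers, whose values may not be independent, the highest of the 3 day 3 values was that of replicate 3, as in 30 of 31 DNA replication genes. Over all 65 members replicate 3 was the highest in 26 and the lowest in 22. The share over all genes was not counted, so these counts cannot be set against a background. Macrophage and dividing-cell markers were also highest in replicate 3 and fibre markers lowest, but satellite cell and myoblast markers were highest in replicate 1. A link to cell types was not tested. Leaving replicate 3 out, all 11 were still called.

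The 5 other tested H2A genes were not called higher. Hist2h2aa2, in the Hist2 cluster, fell: it had 7.41, 9.27 and 7.10 RPKM at day 3, against 19.3, 19.4 and 20.3 RPKM in uninjured muscle, with no overlap. Its log2 fold change was -1.31 ± 0.11 (SE, limma adjusted p = 1.14e-05), and it was the most abundant H2A gene of uninjured muscle. Exons of Gm20632 on the opposite strand overlap 100% of the Hist2h2aa2 transcript. Its neighbour Hist2h2ac, with which it shares 66.0% of its 50-base windows, had 5.92, 6.64 and 6.81 RPKM at day 3 and 5.66, 5.64 and 4.96 RPKM in uninjured muscle, a log2 fold change of 0.25 (95% interval 0.04 to 0.46) that is below the fold needed for a call and turned negative under all 4 other scalings.

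Hist3h2a, whose coding windows are shared to only 35.5% but whose transcript overlaps Trim17 exons on the same strand for 708 bases, had 7.55, 8.67 and 8.29 RPKM at day 3 and 5.41, 4.95 and 5.45 RPKM in uninjured muscle. The log2 fold change of 0.62 (95% interval 0.43 to 0.81, limma adjusted p = 0.000177) also missed the fold for a call, and it was -0.54 after median-of-ratios, -0.74 after quantile and -1.48 after ribosomal protein scaling. Hist2h2ab was at 1.15 to 1.76 RPKM at day 3 and 1.36 to 1.90 RPKM in uninjured muscle, with a log2 fold change of -0.12 (95% interval -0.56 to 0.33). Hist1h2al, which matched no GENCODE transcript by accession, had 0.846, 1.15 and 1.04 RPKM at day 3 and 2.03, 1.76 and 2.08 RPKM in uninjured muscle, lower in every library but not called (log2 fold change -0.89, 95% interval -1.22 to -0.57).

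**Figure D2:**
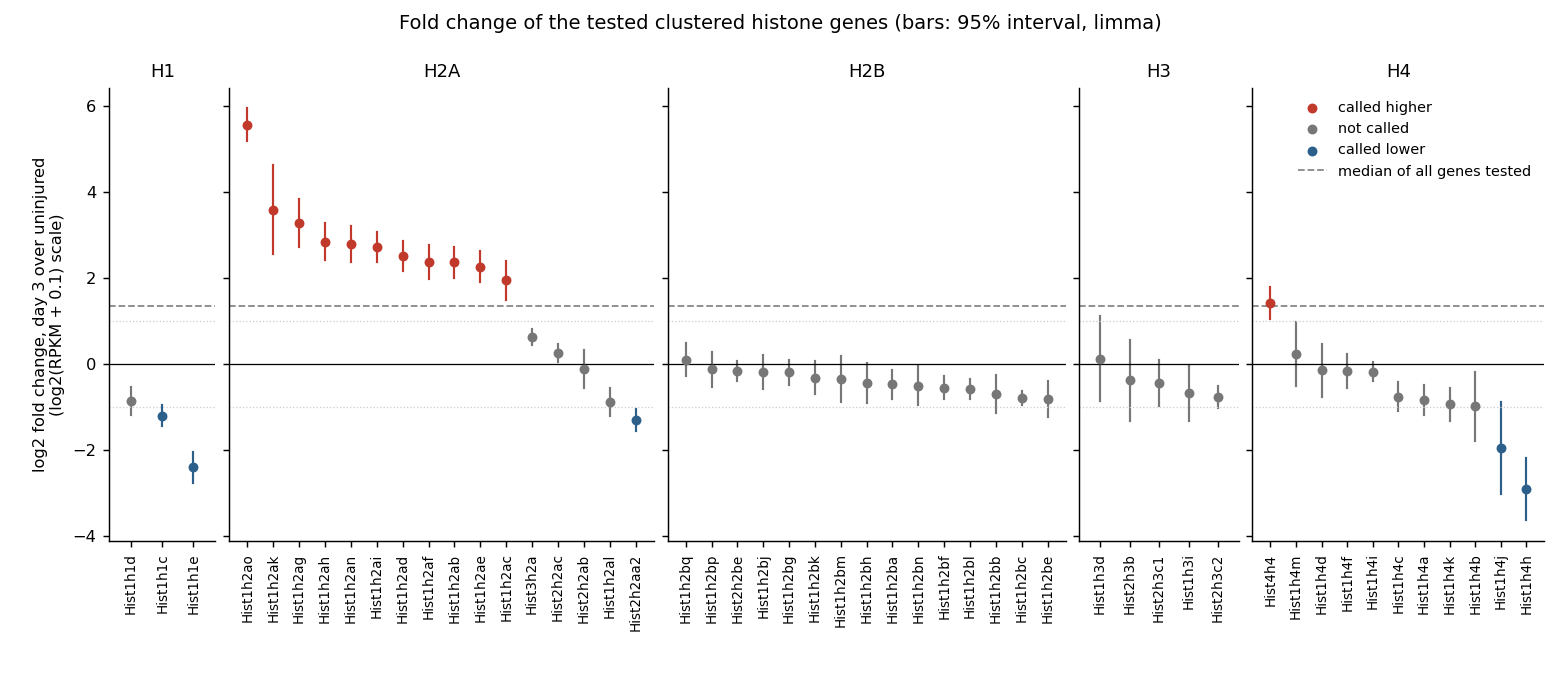
Log2 fold change (day 3 over uninjured, on the log2(RPKM + 0.1) scale) of the 50 tested members by class, with 95% intervals from limma, 3 libraries per group; dotted lines mark the fold needed for a call and the dashed line the median of all genes tested, 1.35. The 11 called H2A genes lie above the dashed line, and every H1, H2B and H3 gene lies below it; the zero line moves with the scaling, and Hist4h4 turns negative after quantile and ribosomal protein scaling.

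H2B genes stand beside H2A genes in the genome, and 0 of the 15 tested were called in either direction by limma on RPKM or by limma voom on recovered reads, against 60.5% higher and 7.96% lower among all genes. At an adjusted p under 0.05 alone, with no fold minimum, and likewise at an unadjusted p under 0.05, 7 of the 15 were lower and 0 higher; of all genes, 14.1% were lower and 78.0% higher by the adjusted p alone. Their log2 fold changes ran from -0.81 to 0.09, all below the median of all genes, and the highest upper bound of their 95% intervals was 0.48. With ERCC controls as reference 3 of the 15 were called lower, after median-of-ratios scaling 14 were, and all 15 were after quantile and ribosomal protein scaling.

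Hist1h2bc was by far the most abundant H2B gene. It had 17.2, 18.1 and 15.6 RPKM at day 3, against 29.2, 29.5 and 29.4 RPKM in uninjured muscle. The groups did not overlap, and the log2 fold change was -0.79 ± 0.07 (SE, 95% interval -0.96 to -0.62, limma adjusted p = 1.88e-05), short of the fold for a call. The other 14 tested H2B genes averaged 0.404 to 2.54 RPKM at day 3 and 0.699 to 2.86 RPKM in uninjured muscle. Hist1h2be had the most negative change, -0.81, with 0.389, 0.499 and 0.323 RPKM at day 3 and 0.823, 0.855 and 0.665 RPKM in uninjured muscle. Hist1h2bq had the most positive, 0.095 (95% interval -0.29 to 0.48), with 0.703, 0.916 and 0.652 RPKM at day 3 and 0.668, 0.796 and 0.633 RPKM in uninjured muscle, and it turned negative under all 4 other scalings.

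The remaining H2B genes can be given by their changes. Hist1h2ba, a testis gene that pairs with Hist1h2aa, was at 1.14 to 1.39 RPKM at day 3 and 1.55 to 2.12 RPKM in uninjured muscle (log2 fold change -0.47, limma adjusted p = 0.0137). Hist1h2bb (-0.70), Hist1h2bf (-0.55), Hist1h2bl (-0.58) and Hist1h2bn (-0.50) also had an adjusted p under 0.05 by limma with lower values in every day 3 library. Of all genes tested, 14.5% had lower values in every day 3 library. Hist1h2bg (-0.20), Hist1h2bh (-0.44), Hist1h2bj (-0.19), Hist1h2bk (-0.32), Hist1h2bm (-0.35), Hist1h2bp (-0.12) and Hist2h2be (-0.17) overlapped between groups.

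Many H2A and H2B genes stand head to head, with their starts close together on opposite strands. There were 11 such pairs of members in GENCODE, with 176 to 306 bases between the starts. In 9 of them the H2A gene was called higher, as were 60.5% of all genes, and the H2B gene was not called. The difference between the log2 levels of the H2A and the H2B gene within 1 library does not depend on how libraries are scaled relative to each other, apart from the added 0.1 RPKM. For Hist1h2ao and Hist1h2bq this difference was 6.25, 5.99 and 6.76 at day 3, against 0.63, 0.87 and 1.13 in uninjured muscle. For Hist1h2ad and Hist1h2bf it was 2.77, 2.72 and 3.30 at day 3, against 0.05, -0.32 and -0.09 in uninjured muscle. For Hist1h2ac and Hist1h2bc it was -3.07, -2.96 and -2.47 at day 3, against -5.72, -5.23 and -5.76 in uninjured muscle. In the Hist2 pair, Hist2h2ac and Hist2h2be, it was 1.31 to 1.32 at day 3 and 0.79 to 1.06 in uninjured muscle. Over the 10 pairs with both genes tested, the H2A change exceeded the H2B change by 0.42 to 5.46 on the log2 scale, with a median of 3.11. Reads of near-identical copies may be divided among pairs, so the pairs are not separate observations.

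**Figure D3:**
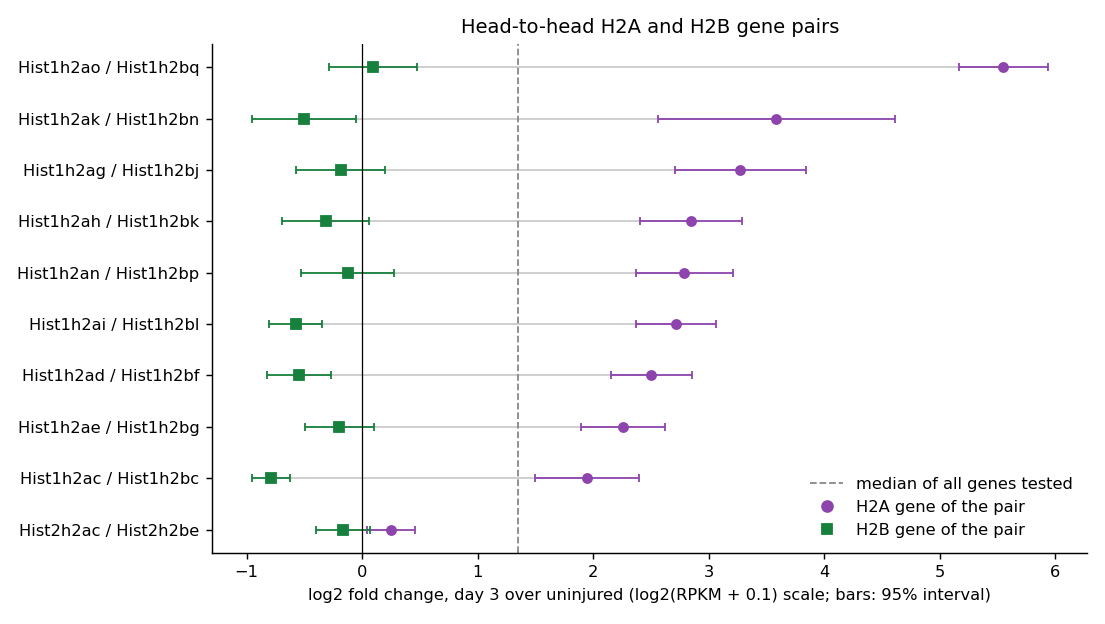
Log2 fold change (day 3 over uninjured, log2(RPKM + 0.1) scale, 95% intervals from limma, 3 libraries per group) of the H2A gene (circle) and the H2B gene (square) in 10 head-to-head pairs; the dashed line is the median of all genes tested. The circle lies to the right of the square in each pair, by 0.42 in the Hist2 pair and by 5.46 in the Hist1h2ao pair.

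The shared stretch between such starts was read in RefSeq promoters (GRCm38.p6, 250 bases before to 50 after each start), which matched 58 of the 65 members. The octamer ATTTGCAT, the letters bound by POU factors such as Oct1 and long known from H2B promoters, was searched on both strands. It was present in 7 of 16 H2A and 6 of 15 H2B promoters and in none of the H1, H3 and H4 promoters, against 474 of 27025 promoters of all genes (1.75%). Some sites were counted in both classes. Hist1h2aa and Hist1h2ba share an octamer, as do Hist1h2ae and Hist1h2bg, and Hist1h2ah and Hist1h2bk. The letters CCAAT were in every H1, H2A, H2B and H3 promoter and in 3 of 11 H4 promoters, against 37.9% of all genes, and neither motif contains the other. The octamer shared by the promoters of Hist1h2ae, which rose, and Hist1h2bg, which was not called, is shown as read from each gene, in capitals.
Hist1h2ae (chr13:23571332-23571357, minus strand): agaggttctATGCAAATaagggactc
Hist1h2bg (chr13:23571332-23571357, plus strand): gagtcccttATTTGCATagaacctct
It lies 128 bases before the RefSeq start of Hist1h2ae and 59 bases before that of Hist1h2bg. Hist1h2ae had 4.86, 4.96 and 6.33 RPKM at day 3, against 1.02, 1.23 and 0.880 RPKM in uninjured muscle, while Hist1h2bg had 1.95, 2.06 and 2.34 RPKM at day 3 and 2.83, 2.20 and 2.31 RPKM in uninjured muscle. Hist1h2ao, the largest riser, has no octamer in its window.

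H1 histones are the linkers that bind DNA between nucleosomes, and 3 of the 6 genes were tested. All 3 tested H1 genes had lower values in every day 3 library, as did 14.5% of all genes tested. Of these H1 genes, 2 were past the fold for a call, against 7.96% of all genes called lower. All 3 were lower under each scaling tried. Hist1h1c was the most abundant clustered histone gene of uninjured muscle. It had 19.9, 23.3 and 18.6 RPKM at day 3, against 44.7, 46.3 and 51.7 RPKM in uninjured muscle, with no overlap and a log2 fold change of -1.21 ± 0.10 (SE, limma adjusted p = 1.45e-05). Hist1h1e had 0.878, 0.744 and 0.559 RPKM at day 3, against 4.09, 4.05 and 4.55 RPKM in uninjured muscle, so the uninjured mean was 5.82-fold the day 3 mean. Its log2 fold change was -2.40 ± 0.16 (SE, limma adjusted p = 3.18e-06), and 450 bases of its transcript overlap the start of Hist1h2be on the same strand, a gene that was not called. The third tested gene, Hist1h1d, at 0.341 to 0.422 RPKM at day 3 and 0.702 to 0.803 RPKM in uninjured muscle, had a log2 fold change of -0.87 (95% interval -1.20 to -0.55) and was not called. Its day 3 mean was below 0.5 RPKM, so it passed the filter through its uninjured values.

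The 3 other H1 genes were below the filter. Hist1h1a had 0.587, 0.188 and 0.222 RPKM at day 3, from 15, 5 and 6 reads, and 0.01, 0.103 and 0.0346 RPKM in uninjured muscle, from 0, 3 and 1 reads. Without the filter it was called higher (log2 fold change 1.47, limma adjusted p = 0.037). Hist1h1b was at 0.251 to 0.479 RPKM at day 3 and 0.230 to 0.342 RPKM in uninjured muscle. The testis linker Hist1h1t had 1 read in 1 day 3 library and none in the others.

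H4 genes encode a single protein, yet their values did not move together. Of 11 tested, 1 was called higher and 2 lower, against 60.5% and 7.96% of all genes, and 10 of the 11 lay below the median of all genes. Hist1h4h fell the most of all clustered histone genes. It had 1.15, 1.75 and 0.632 RPKM at day 3, against 8.82, 9.23 and 8.52 RPKM in uninjured muscle, from 19, 30 and 11 reads against 183, 174 and 159. The groups did not overlap, the uninjured mean was 7.51-fold the day 3 mean, and the log2 fold change was -2.91 ± 0.31 (SE, limma adjusted p = 5.06e-05). Hist1h4j had 1.41, 0.361 and 0.355 RPKM at day 3, against 2.98, 2.46 and 2.23 RPKM in uninjured muscle, from 15, 4 and 4 reads against 40, 30 and 27. Day 3 replicate 1 stood apart from the other two, and the log2 fold change was -1.95 ± 0.45 (SE, limma adjusted p = 0.0043), or -2.53 without that library.

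Hist4h4, the lone gene of its cluster on chromosome 6, was the H4 gene that rose. It had 1.08, 0.988 and 1.12 RPKM at day 3, against 0.323, 0.275 and 0.421 RPKM in uninjured muscle, with no overlap. Its log2 fold change was 1.41 ± 0.16 (SE, limma adjusted p = 7.61e-05), beside the all-gene median of 1.35, and it was -0.54 after quantile and -0.41 after ribosomal protein scaling, and not called after median-of-ratios scaling or with a pseudocount of 1. It is also the H4 gene least like the others, with 1.90% of its coding windows shared. Hist1h4i, the most abundant H4 gene at day 3, had 6.47, 7.12 and 6.43 RPKM at day 3 and 6.68, 7.83 and 8.24 RPKM in uninjured muscle, and the groups overlapped (log2 fold change -0.18, 95% interval -0.41 to 0.05).

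Among the other H4 genes, Hist1h4a (-0.84), Hist1h4b (-0.99), Hist1h4c (-0.77) and Hist1h4k (-0.94) had lower values in every day 3 library and an adjusted p under 0.05 by limma, but did not reach the fold for a call. Of all genes tested, 14.5% had lower values in every day 3 library and 14.1% were lower by the adjusted p alone. Hist1h4d (-0.15), Hist1h4f (-0.16) and Hist1h4m (0.23) overlapped between groups, the last turning negative under all 4 other scalings. Hist2h4 was below the filter, with 3, 2 and 1 reads at day 3 and 0, 0 and 2 in uninjured muscle.

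H3 genes were the least abundant class, with no gene averaging above 2.27 RPKM in either group. Of the 12, 5 passed the filter and 0 were called in either direction by limma or by limma voom, while 2 were lower at an unadjusted p under 0.05. Of these, 1 also had an adjusted p under 0.05, Hist2h3c2, with 0.944, 0.992 and 0.894 RPKM at day 3 and 1.86, 1.63 and 1.57 RPKM in uninjured muscle (log2 fold change -0.77, 95% interval -1.03 to -0.51, limma adjusted p = 0.000291). Hist2h3c1, the most abundant H3 gene, had 1.91, 2.04 and 1.11 RPKM at day 3 and 2.57, 2.13 and 2.11 RPKM in uninjured muscle, a change of -0.45 (95% interval -0.98 to 0.084) with no overlap between groups. Exons of Gm20634 on the same strand overlap 100% of its transcript.

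The other tested H3 genes overlapped between groups: Hist1h3d changed by 0.12 (95% interval -0.87 to 1.11) and turned negative under all 4 other scalings, Hist1h3i by -0.68 (-1.34 to -0.013) and Hist2h3b by -0.38 (-1.32 to 0.57). The 7 H3 genes below the filter, Hist1h3a, Hist1h3b, Hist1h3c, Hist1h3e, Hist1h3f, Hist1h3g and Hist1h3h, held 12 to 33 reads over the 3 day 3 libraries and 8 to 32 over the 3 uninjured ones. Without the filter, Hist1h3a was called higher (28 reads at day 3 and 8 in uninjured muscle, log2 fold change 1.53, limma adjusted p = 0.0398), and the others were not called, with 5 of them overlapping between groups.

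The rest of the members below the filter were Hist1h2aa, Hist2h2bb, Hist3h2ba and Hist3h2bb-ps. The testis gene Hist1h2aa had 2, 4 and 2 reads at day 3 and 0, 1 and 0 in uninjured muscle, and Hist2h2bb had 7, 3 and 5 reads at day 3 and 0, 1 and 0 in uninjured muscle. Both were called higher without the filter, with log2 fold changes of 1.18 and 1.62 that depend on the 0.1 RPKM added. Hist3h2ba had 2, 7 and 9 reads at day 3 and 6, 5 and 2 in uninjured muscle, and Hist3h2bb-ps had 1, 2 and 3 reads at day 3 and 4, 4 and 2 in uninjured muscle.

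Sums over a class depend less on how reads were divided among its near-identical copies. The 17 H2A genes summed to 161, 172 and 215 RPKM at day 3, against 46.8, 48.3 and 48.7 RPKM in uninjured muscle, 3.81-fold higher in the mean, although with ribosomal protein genes as reference the log2 ratio was -0.22. Without Hist1h2ao the H2A sum was 100, 107 and 133 RPKM at day 3 and 45.7, 46.8 and 47.2 RPKM in uninjured muscle, a log2 ratio of 1.29. That ratio was 0.85 with ERCC controls as reference, 0.11 after median-of-ratios and -0.86 after ribosomal protein scaling. Each lay below the median log2 fold change of all genes, which was 1.35, 0.95, 0.22 and -0.70 in that order. Every other class summed lower at day 3, also under the other scalings of the sums. The H1 sum, most of it from Hist1h1c, was 22.3, 24.9 and 20.1 RPKM at day 3, against 49.9, 51.6 and 57.2 RPKM in uninjured muscle. The H4 sum was 18.4, 17.2 and 16.8 RPKM at day 3, against 30.2, 30.6 and 30.7 RPKM in uninjured muscle, and the H2B sum was 37.7, 38.6 and 35.7 RPKM at day 3, against 54.3, 56.9 and 54.9 RPKM in uninjured muscle. The H3 sum was 6.64, 8.03 and 7.42 RPKM at day 3 and 9.54, 7.97 and 7.54 RPKM in uninjured muscle, and the groups overlapped.

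The make-up of the family differed between the groups. H2A gave 65.4% to 72.9% of the summed histone RPKM at day 3 and 24.5% to 24.7% in uninjured muscle. Hist1h1c, Hist1h2bc and Hist2h2aa2 together gave 14.0% to 19.4% at day 3 and 48.8% to 50.9% in uninjured muscle. The sum over all 65 genes was 246, 261 and 295 RPKM at day 3 and 191, 195 and 199 RPKM in uninjured muscle, a log2 ratio of 0.45. It was 0.024 with ERCC controls as reference, and it was negative after median-of-ratios (-0.72) and ribosomal protein scaling (-1.69). Without Hist1h2ao the sum was 185, 196 and 214 RPKM at day 3 and 190, 194 and 197 RPKM in uninjured muscle, and the groups overlapped.

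**Figure D4:**
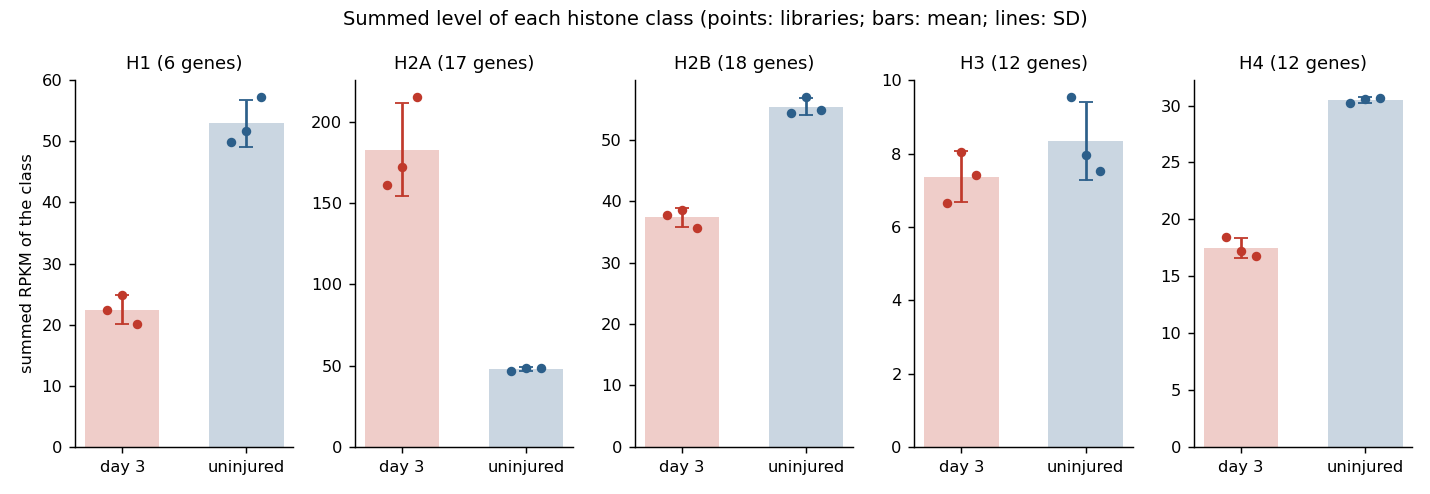
Summed RPKM of each histone class, day 3 left and uninjured right, each axis starting at 0; points are the 3 libraries, bars the mean and lines the SD. The H2A sum was 161 to 215 RPKM at day 3 and 46.8 to 48.7 RPKM in uninjured muscle (the difference turns round with ribosomal protein genes as reference), the H1, H2B and H4 sums were lower in every day 3 library, and the H3 sums overlapped.

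The replacement histones are made from genes outside the clusters. Of 12 tested, 9 were called higher and 1 lower, against 60.5% and 7.96% of all genes, with a median log2 fold change of 2.52 against 1.35 over all genes. H3f3b, which encodes H3.3, was the most abundant of them at day 3. It had 250, 264 and 283 RPKM at day 3, against 26.7, 27.4 and 27.1 RPKM in uninjured muscle, a log2 fold change of 3.29 ± 0.07 (SE, limma adjusted p = 8.23e-08). H3f3a, which encodes the same protein, had 160, 167 and 158 RPKM at day 3 and 59.8, 56.4 and 58.1 RPKM in uninjured muscle, a log2 fold change of 1.48 that was -0.66 with ribosomal protein genes as reference. H2afz, which encodes H2A.Z, had 187, 193 and 205 RPKM at day 3 and 22.2, 22.0 and 21.4 RPKM in uninjured muscle (log2 fold change 3.15).

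Cenpa, the H3 form of centromeres, had the largest rise of the list, with 40.1, 38.6 and 45.8 RPKM at day 3 and 1.42, 0.822 and 1.02 RPKM in uninjured muscle (log2 fold change 5.15). The linker H1f0, known from resting and differentiated cells, had 52.6, 54.2 and 52.1 RPKM at day 3 and 33.1, 30.9 and 33.1 RPKM in uninjured muscle. The log2 fold change of 0.71 was below the fold for a call and was -0.46, -0.15 and -1.42 after median-of-ratios scaling, quantile normalization and ribosomal protein scaling. Hils1, a spermatid linker, was the 1 gene called lower, at 0.591 to 1.21 RPKM at day 3 and 1.72 to 2.12 RPKM in uninjured muscle (log2 fold change -1.02, limma adjusted p = 0.00392), and that call was lost in 5 alternatives.

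Set against the clustered genes of the same class, H3f3a and H3f3b together had 53.7 to 61.7 times the summed RPKM of the 12 clustered H3 genes at day 3 and 9.07 to 11.3 times in uninjured muscle. H1f0 and H1fx had 2.33 to 2.85 times that of the clustered H1 genes at day 3 and 0.581 to 0.669 times in uninjured muscle. For 6 replacement H2A genes the ratio to the clustered H2A genes was 1.36 to 1.65 at day 3 and 1.03 to 1.07 in uninjured muscle. These ratios do not depend on the scaling between libraries, but they do depend on how much stem-loop mRNA was captured, which is unknown. They also depend on the entries used, and 29 clustered entries cover the coding part only.

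The machinery that makes histone mRNA was compared next. Of 20 tested genes for histone mRNA transcription, processing and decay, 18 were called higher and 0 lower, against 60.5% and 7.96% of all genes, by limma and by limma voom, with 0 lower at an unadjusted p under 0.05 and a median log2 fold change of 1.85. Slbp had 29.1, 30.9 and 35.0 RPKM at day 3, against 3.41, 3.27 and 3.56 RPKM in uninjured muscle, a log2 fold change of 3.17 ± 0.09 (SE, limma adjusted p = 1.13e-07). Npat, the coactivator that switches on histone genes in S phase, averaged 3.83 ± 0.365 RPKM at day 3 and 1.28 ± 0.113 RPKM in uninjured muscle (SD, n = 3 each). That log2 fold change, 1.51, was near the median of all genes and turned negative after quantile and ribosomal protein scaling. Ccne1, the cyclin that with Cdk2 activates Npat, had the largest rise, with 13.4, 12.7 and 18.7 RPKM at day 3 and 0.0355, 0.0781 and 0.158 RPKM in uninjured muscle (log2 fold change 6.33). Mif4gd, a partner of Slbp in translation, changed least, at 3.90 to 4.84 RPKM at day 3 and 3.93 to 4.50 RPKM in uninjured muscle (log2 fold change 0.096, 95% interval -0.15 to 0.35), and turned negative under all 4 other scalings. Sympk, a scaffold of the cleavage complex and the most abundant of the list in the mean over both groups, had 26.6, 25.0 and 30.3 RPKM at day 3 and 22.3, 26.1 and 23.3 RPKM in uninjured muscle, which overlapped (log2 fold change 0.19, 95% interval -0.039 to 0.42).

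Histone chaperones and genes of DNA replication were the last lists compared, against the same 60.5% of all genes called higher and 7.96% lower. Of 26 tested chaperone genes 23 were called higher and 0 lower, by limma and by limma voom, with 1 lower at an unadjusted p under 0.05 and a median of 2.29, from Asf1b (log2 fold change 5.72, with 16.1 to 22.4 RPKM at day 3 and 0.174 to 0.420 RPKM in uninjured muscle) to Nap1l4 (-0.19, with 56.0 to 56.9 and 62.3 to 65.7 RPKM in that order). Npm1, the most abundant at day 3, had 171, 162 and 172 RPKM at day 3 and 16.9, 15.1 and 16.9 RPKM in uninjured muscle. Of 31 replication genes 29 were called higher and 0 lower, by limma and by limma voom, with 0 lower at an unadjusted p under 0.05 and a median of 3.43. Pcna, the sliding clamp of the replication fork, had 119, 126 and 155 RPKM at day 3 and 12.7, 11.5 and 12.6 RPKM in uninjured muscle. Rrm2, which makes deoxynucleotides, had the largest rise (log2 fold change 7.02), and Rpa1 the smallest, 0.70, which was negative in the same 3 scalings as H1f0.

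**Figure D5:**
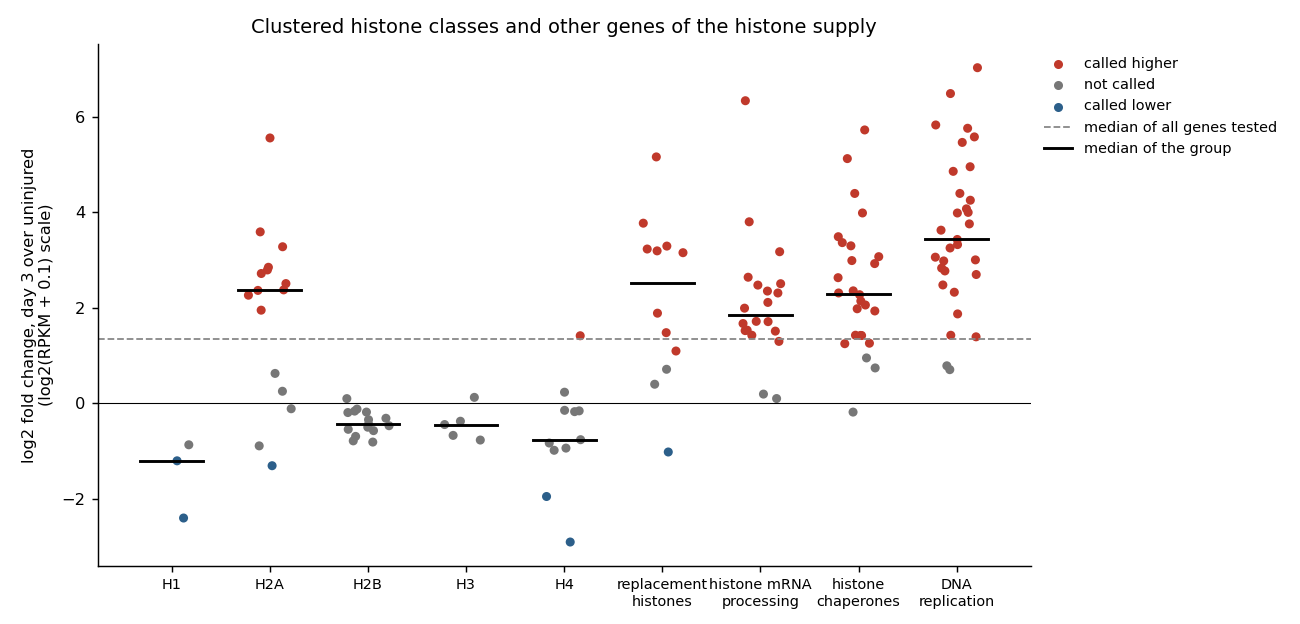
Log2 fold change (day 3 over uninjured, log2(RPKM + 0.1) scale) of each tested gene in the 5 clustered histone classes and in 4 lists of related genes, with the median of each group (black line) and of all genes tested (dashed line, 1.35). The median is 2.37 in H2A, -1.21 in H1, -0.44 in H2B, -0.45 in H3 and -0.77 in H4, and 3.43 in the DNA replication genes; all values shift with the scaling between libraries.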

How the data were processed

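RNA of TA muscle from 3 mice at day 3 after CTX and 3 uninjured mice was sequenced as single 50-nt reads from 1 μg of total RNA. The authors used BWA with RefSeq mouse transcripts as reference and deposited RPKM values for 34302 sequences (their processing notes also list CASAVA 1.4 and SAMtools 0.1.19), 92 of them ERCC controls and 4 others without a gene name, all left out of the tests. The mapped reads of each library were inferred from the RPKM values, as the total at which values times transcript length come to whole reads. With these fitted totals the values came to whole reads within 0.01 read. The lowest listed value, 0.01, was read as 0 reads, and 1 read in 1 kb equals 0.0232 to 0.0292 RPKM. The deposited transcript length column was used for this and for entry lengths.

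For 5019 genes with several transcripts the one of highest mean was used. The test was limma 3.58.1 in R 4.3.3 (lmFit and eBayes, trend on), applied to log2(RPKM + 0.1) of genes whose mean reached 0.5 RPKM, with Benjamini-Hochberg adjustment. Fold changes on this scale understate the change of low genes. Tests were checked on simulated data in which a small set of genes changed, evenly up and down. A shift of most genes, as at day 3, was not simulated. Sequences came from GENCODE M21 (GRCm38), matched by RefSeq accession, and from RefSeq promoters (GRCm38.p6), read with Python 3.11.15, Biopython 1.88, pandas 2.3.3 and NumPy 2.4.6; figures used matplotlib 3.10.9.

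The members, lists and tests were chosen with earlier results of these data known. In each class the text names the members of highest level in each group, those with the largest and smallest change, all called lower and all not passing, the testis genes and the Hist3 and Hist4 genes; in each other list it names the most abundant gene and the extremes, with Slbp, H2afz, H3f3a, H3f3b, H1f0 and Npat. The other risers, the head-to-head pairs, the ratios, the sums without Hist1h2ao and the sum of Hist1h1c, Hist1h2bc and Hist2h2aa2 were chosen after values were seen. Tried as alternatives were pseudocounts of 0.01 and 1, no filter or a mean of 2 RPKM, other scalings, limma options, no fold minimum, summed transcripts, a replicate block, leaving out each library, and limma voom on the recovered reads.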

Additional observations from a re-analysis of the deposited data

How the results depend on the processing

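The count of clustered histone genes called higher, 12, was 7 after quantile normalization and 3 with ribosomal protein scaling, and the 5 called lower became 8 with a pseudocount of 0.01, 16 with ERCC scaling, 19 with no fold minimum, 33 with median-of-ratios, 37 with quantile and 38 with ribosomal protein scaling. Leaving out 1 library gave 12 higher each time and 5 to 7 lower; the added calls were Hist1h4b and Hist1h4k. Over all genes the higher calls fell to 4299 (median-of-ratios), 3460 (quantile) and 2326 (ribosomal protein), and the lower calls were 2870, 3561 and 5941 in that order, and 2033 with no fold minimum. For processing genes 8, 7 and 3 were higher and 1, 1 and 2 lower in the same order; for chaperones 14, 14 and 7 were higher, with 1 lower after median-of-ratios scaling, 3 after ribosomal protein scaling and 1 with no fold minimum. Ribosomal protein scaling called 2 replication genes and 4 replacement genes lower. The 1 replacement gene called lower, Hils1, was lost (0 called) with a pseudocount of 1, a mean RPKM of at least 2, array weights, and without day 3 replicate 3 or uninjured replicate 2 (range 0 to 1).

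Directions turned as follows under median-of-ratios, quantile, ribosomal protein and ERCC scaling, in that order: Hist1h2bq -0.93, -1.90, -1.77 and -0.28; Hist1h3d -0.87, -1.97, -1.66 and -0.24; Hist1h4m -0.85, -1.58, -1.73 and -0.16; Hist2h2ac -0.91, -1.15, -1.85 and -0.17; Mif4gd -1.05, -1.39, -1.99 and -0.32. With the first 3 of these scalings Hist3h2a was -0.54, -0.74 and -1.48, Rpa1 -0.47, -0.43 and -1.42, and H1f0 -0.46, -0.15 and -1.42. Quantile and ribosomal protein scaling turned Hist4h4 (-0.54 and -0.41) and Npat (-0.14 and -0.53), and ribosomal protein scaling H3f3a (-0.66). Leaving out 1 library moved Hist1h2bp between -0.25 and 0.019, Hist1h2bq between -0.034 and 0.18, Hist1h3d between -0.31 and 0.59, Hist1h4m between -0.091 and 0.45, Hist2h2ab between -0.26 and 0.026, and Hist2h3b between -0.72 and 0.083. The cause was not tested.

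The replicate numbers do not pair the mice: same-numbered libraries had correlations of -0.06, 0.09 and 0.02. With the number as a replicate block, 12 members were higher and 5 lower, as without it, and 8743 and 1149 of all genes. Median-of-ratios scaling left Hist1h2ac and Hist4h4 uncalled, and a mean of at least 2 left them and Hist1h4j untested. Genes under 10 reads a library set the depth limit, and with 3 mice a group an exact permutation test of 1 gene cannot go below p = 0.1.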
